A study of Mus musculus with 9 samples.

Results

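The 38 genes described here encode parts of the skeletal muscle sarcomere and of the calcium handling system that drives it. They were read by symbol from a count table of 27179 genes made from whole mandibles, teeth included. Each of the 38 symbols matched 1 row, and all 38 passed the low-count filter that left 16329 genes to test. The question was whether these genes differed between WT males and males labelled FcgRIIB-/-, which lack the inhibitory Fc gamma receptor and served the study as a mouse model of lupus with mandibular bone loss. Both groups were C57BL/6 mice aged 6 months, with 5 WT mice and 4 mice labelled FcgRIIB-/-, each sequenced as 1 poly(A) library. No Cre or tissue-specific promoter is named for the mutation. Nothing in the sources used here says how much jaw muscle stayed on each mandible.

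The targeted gene went against the labels. *Fcgr2b* (gene ID 14130, chromosome 1, 170960558 to 170976071, GRCm38) was counted 577, 954, 442, 630 and 529 times in the WT libraries and 757, 562, 628 and 634 times in the libraries labelled FcgRIIB-/-, in replicate order. Mean CPM (counts scaled to library size) was 24.0 ± 8.28 over the 5 WT mice and 27.8 ± 2.90 over the 4 others (± SD), a log2 fold change of 0.21 with a standard error (SE) of 0.20 and an edgeR adjusted p of 0.442. Reads from transcripts that keep sequence outside a deleted part would still be counted, so the count does not settle which mice carried the mutation. The groups are therefore called WT and libraries labelled FcgRIIB-/- throughout, and every direction is that of the second group over the first.

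In striated muscle the sarcomere is the repeating unit of contraction, in which actin thin filaments anchored at the Z disc slide past myosin thick filaments held at the M band. A nerve impulse opens the ryanodine receptor of the sarcoplasmic reticulum, the calcium that is released binds troponin C, and tropomyosin moves aside so that myosin can grip actin. A calcium pump then returns the ion to the store and the fibre relaxes. Many of these proteins exist in a slow or cardiac form and a fast form, and the jaw-closing muscles attached to the mouse mandible are made mostly of fast fibres.

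All samples held this muscle programme, in amounts that varied from mouse to mouse. Library totals ran from 24158960 to 26787359 counts in WT and from 21453880 to 28991631 in the libraries labelled FcgRIIB-/-. The 38 genes together took 2.79%, 1.24%, 1.97%, 2.51% and 2.22% of the counts in WT replicates 1 to 5, and 4.80%, 2.82%, 2.91% and 4.14% in FcgRIIB-/- replicates 1 to 4. The ranges of the groups did not overlap, although the highest WT library and the lowest of the others lay close together. WT replicate 2 was the lowest of all 9 mice for 34 of the 38 genes, and FcgRIIB-/- replicate 1 was the highest for 28. In bulk tissue, more muscle in a specimen and more RNA per fibre cannot be told apart.

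Markers of the other tissues of the jaw moved as well. Over all 16329 tested genes, 14.0% rose and 19.3% fell. Bone genes were abundant in every library, as the label of the tissue requires, with *Col1a1*, the main bone collagen chain, at 31252 CPM in WT and 32590 in the other group. Their 11 markers summed to between 46594 and 66806 CPM in WT and between 42995 and 52841 in the libraries labelled FcgRIIB-/-, and 5 of the 11 fell. All 13 marrow myeloid markers fell, from sums of 1192 to 3603 CPM to sums of 162 to 445, and so did 9 of 10 marrow erythroid markers, from 1032 to 1268 CPM to 372 to 483. In the other direction, 3 of 4 enamel and dentin markers rose. Their list summed to 10382 to 28285 CPM in WT and 31098 to 53098 in the other group. Adipocyte markers were mixed. They summed to 227 to 338 CPM against 441 to 574, with 2 of the 5 tested genes higher and 1 lower. The 2 that rose, *Lpl* (mean 228 against 360 CPM) and *Fabp4* (68.2 against 141 CPM), were the most abundant of the list. The 1 that fell was *Adipoq*, the adiponectin gene, at 3.72 against 1.29 CPM (log2 fold change -1.53, SE 0.28, adjusted p = 0.00307). Of the 8 keratinized epithelium markers tested, 6 fell and 1 rose. The part of these shifts in the muscle result was not tested.

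Markers of heart and smooth muscle were scarce or gave few calls. The 8 cardiac markers summed to 9.27 to 11.7 CPM in WT and 8.97 to 20.5 in the other group, with *Nppa*, the atrial natriuretic peptide gene, at 0 counts in all 9 libraries and 1 of the 6 tested genes higher. Smooth muscle markers, which include *Acta2*, the vascular smooth muscle actin, summed to 475 to 600 CPM and 469 to 492 CPM, and 1 of 8 fell. Markers of muscle stem cells and regenerating fibres gave 1 gene higher and 1 lower among 7 tested, with sums of 309 to 478 CPM and 469 to 930 CPM. The gene that rose was *Myh8*, the perinatal myosin heavy chain, which is also among the other muscle genes described further on, and the one that fell was *Ncam1*, a neural cell adhesion molecule. The 5 endothelial markers summed to 357 to 410 CPM in WT and 372 to 434 in the other group.

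**Figure D1:**
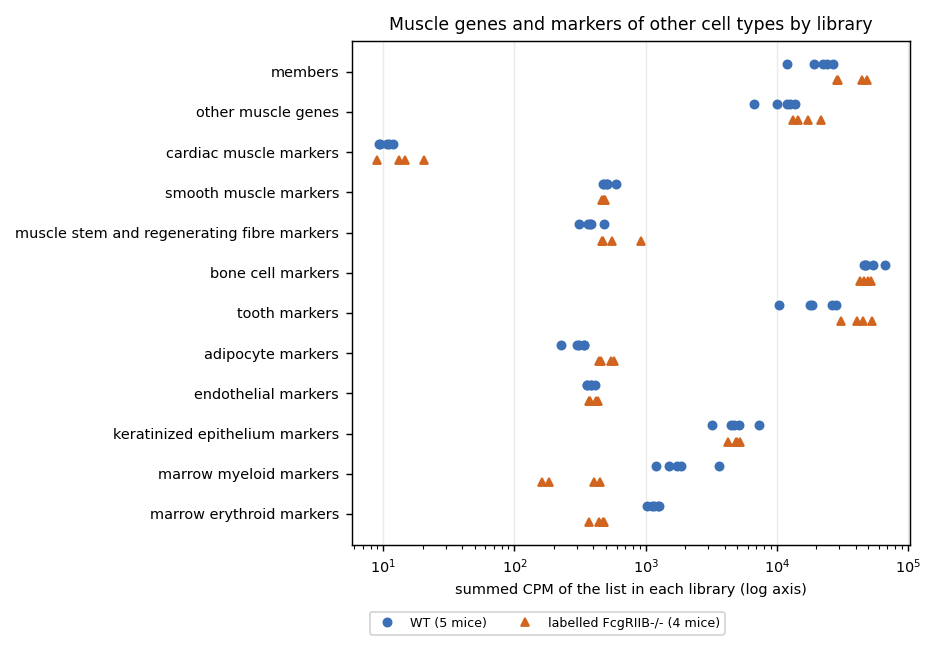
Summed CPM of each gene list in each library, on a log axis, with a circle for each of 5 WT mice and a triangle for each of 4 mice labelled FcgRIIB-/-; "members" are the 38 sarcomere and calcium handling genes. The tooth sums and those of the 38 genes lay higher in the second group, the other muscle sums overlapped by 1 mouse, the marrow sums lay lower, and the cardiac sums stayed at or below 20.5 CPM.

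Of the 38 muscle genes, 21 rose in the libraries labelled FcgRIIB-/- and none fell. Among all 16329 genes tested, 14.0% rose, 19.3% fell and 33.3% were called in either direction. No muscle gene had an unadjusted p under 0.05 in the downward direction. DESeq2 and limma-voom also called none lower, with 27 and 20 called higher, against 17.3% and 13.6% of all genes. The log2 fold change was positive for 37 of the 38, with a median of 0.73 against 0.01 for all tested genes. In 16 genes every library labelled FcgRIIB-/- lay above every WT library, a pattern that 12.1% of all tested genes showed, and 8 genes were at least 2-fold higher.

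The size of the list that rose depended on single mice. Without FcgRIIB-/- replicate 1, the mouse with the most muscle RNA, 11 genes were called, against 11.2% of all genes called higher, and the median was 0.58. Without WT replicate 3 the count was 15, against 14.1% of all genes. Leaving out WT replicate 2, the mouse with the least muscle RNA, gave 19 calls, against 12.9% of all genes, and a median of 0.60. Scaling by library totals in place of TMM called 14, against 8.02% of all genes, and dropped *Tnnt1*, *Ttn*, *Actn2*, *Actn3*, *Smpx*, *Sln* and *Mb*. The 11 genes called under every alternative were *Actc1*, *Tpm1*, *Tpm2*, *Tnnt3*, *Tnni2*, *Tnnc1*, *Tnnc2*, *Mylpf*, *Myoz1*, *Tcap* and *Pvalb*. The spread between mice was wide throughout: the coefficient of variation of a gene's CPM had a median of 29.6% among WT mice and 29.4% among the others.

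**Figure D2:**
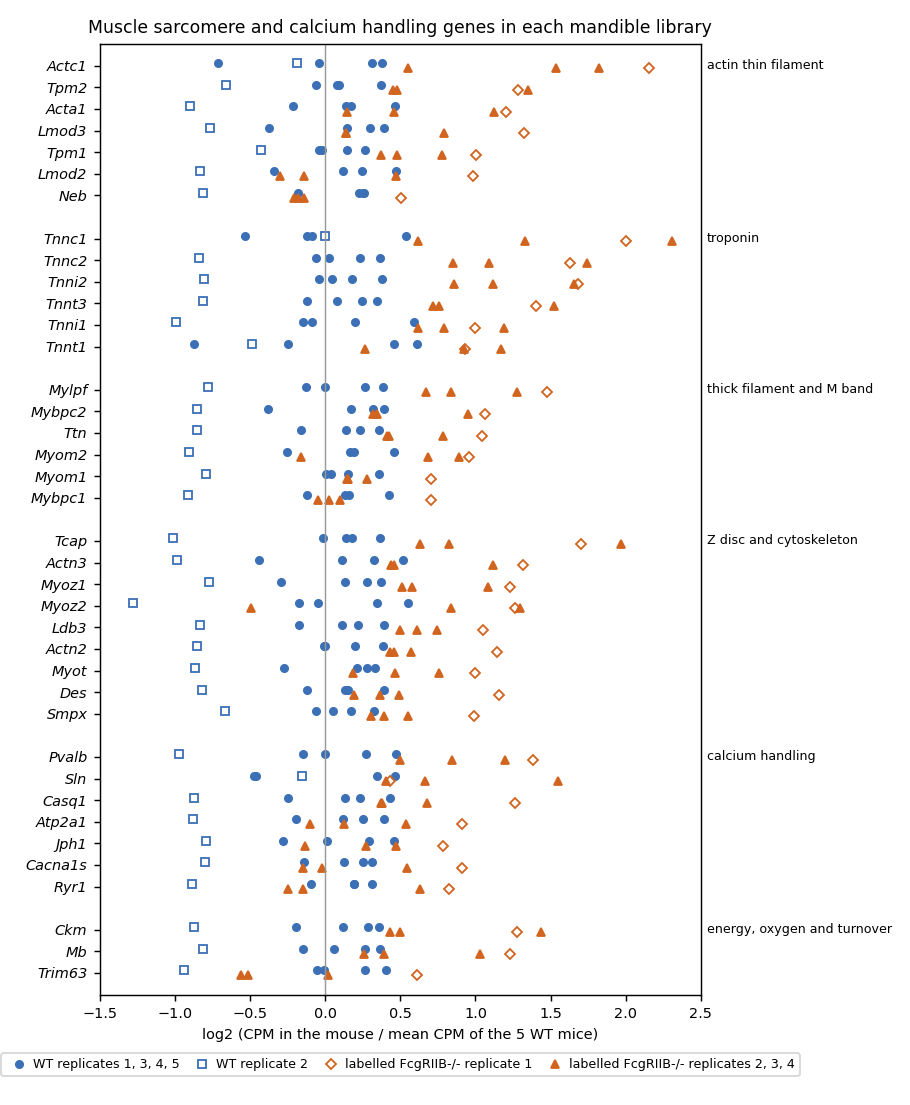
Level of each of the 38 genes in each library as log2 of its CPM over the mean CPM of the 5 WT mice, ordered by role. Circles are WT replicates 1, 3, 4 and 5, open squares WT replicate 2, open diamonds FcgRIIB-/- replicate 1 and triangles FcgRIIB-/- replicates 2, 3 and 4; the square is leftmost in 34 genes and the diamond rightmost in 28.

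The thin filament genes differed among themselves. Skeletal alpha-actin, *Acta1*, is the actin of adult skeletal fibres and *Actc1* is its cardiac relative, which skeletal muscle uses mainly before birth. *Actc1* was at 4.17, 3.77, 2.62, 5.32 and 5.58 CPM in WT replicates 1 to 5 and at 19.1, 6.29, 15.2 and 12.5 CPM in FcgRIIB-/- replicates 1 to 4. All 4 of the latter lay above all WT mice, with FcgRIIB-/- replicate 2 just over the highest of them, and the gene rose 3.09-fold (log2 fold change 1.63, SE 0.30, adjusted p = 0.00315). *Acta1*, which held the highest level per kilobase of exon of all 38 genes in WT, was at 3142, 1222, 1961, 2568 and 2502 CPM in WT and at 5241, 3134, 2522 and 4957 CPM in the other group. Its groups overlapped, since FcgRIIB-/- replicates 2 and 3 lay below WT replicate 1, and its log2 fold change of 0.80 (SE 0.28) missed the threshold by edgeR at an adjusted p of 0.051. The call was gained by DESeq2 (adjusted p = 0.0316), with RLE scaling (0.0487), without WT replicate 1 (0.0356) and without FcgRIIB-/- replicate 3 (0.0326), within a range of 0.0101 to 0.139 over all alternatives.

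The proximal promoters of this actin pair are shown because the genes make closely related proteins at very different levels and gave differences of unlike size. Each is the 250 bases before the RefSeq start, read 5′ to 3′ on the coding strand of GRCm38.p6, at chr2:114052876-114053125 for *Actc1* and chr8:123894776-123895025 for *Acta1*, both on the minus strand. Capitals mark letter matches on either strand to the CArG box (the serum response factor motif), to the E-box CANNTG bound by MyoD-type factors, and to the MCAT element CATTCC bound by TEAD factors.
Actc1: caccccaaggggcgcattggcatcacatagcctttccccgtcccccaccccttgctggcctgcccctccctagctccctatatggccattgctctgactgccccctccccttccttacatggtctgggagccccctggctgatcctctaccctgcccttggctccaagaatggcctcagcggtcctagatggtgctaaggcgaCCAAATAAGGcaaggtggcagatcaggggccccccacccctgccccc
Acta1: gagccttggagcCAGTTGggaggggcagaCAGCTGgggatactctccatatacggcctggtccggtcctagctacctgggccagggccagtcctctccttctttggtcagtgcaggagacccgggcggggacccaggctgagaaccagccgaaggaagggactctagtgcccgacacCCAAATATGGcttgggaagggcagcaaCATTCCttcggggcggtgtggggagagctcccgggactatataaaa
Both hold a CArG match, at -47 to -38 from the start in *Actc1* and at -73 to -64 in *Acta1*. *Acta1* also holds a pair of E-boxes at -238 to -233 and -221 to -216 and an MCAT match at -46 to -41, which do not occur in the 250 bases of *Actc1*.

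A RefSeq promoter was found for 27 of the 38 genes. The CArG box occurred in 4 of the 27 (14.8%: *Acta1*, *Actc1*, *Myom1* and *Ldb3*) against 1.62% of the 27025 genes with a promoter of the same length, and the MEF2 site in 3 (11.1%: *Ttn*, *Myoz2* and *Pvalb*) against 3.42%. A gene was counted if any of its promoters held the motif. E-boxes were in 23 (85.2%) against 69.3%, MCAT elements in 6 (22.2%) against 14.4%, and TATAAA, which was not capitalised above, in 3 (11.1%) against 14.3%. The CArG box was in 2 of the 15 genes with a promoter that rose and in 2 of the 12 that were not called. These are matches of letters and say nothing on which factor bound.

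Tropomyosin lies along actin and blocks the myosin sites at rest. *Tpm1*, which encodes the alpha chain, was at 1193 to 1921 CPM in WT and at 3206, 2072, 2226 and 2741 CPM in the libraries labelled FcgRIIB-/-. The groups did not overlap and the gene rose 1.60-fold (log2 fold change 0.68, SE 0.17, adjusted p = 0.0112). *Tpm2*, the beta chain, was at 728 to 1484 CPM in WT and at 2797, 1602, 1573 and 2932 CPM in the other group, again without overlap, and rose 1.94-fold (0.95, SE 0.24, adjusted p = 0.0130).

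The long ruler of the thin filament stood apart from its partners. *Neb* encodes nebulin, a giant protein that runs the length of the thin filament. It was at 848, 405, 627, 831 and 851 CPM in WT and at 1011, 627, 615 and 647 CPM in the libraries labelled FcgRIIB-/-. A single high mouse, FcgRIIB-/- replicate 1, lay above the WT range, the other 3 lay inside it, and the log2 fold change was 0.03 (SE 0.23, adjusted p = 0.943). It turned negative without FcgRIIB-/- replicate 1 (-0.18), without WT replicate 2 (-0.11), without WT replicate 3 (-0.005) and when libraries were scaled by their totals (-0.05). The leiomodins, which start new actin filaments, were not called by edgeR: *Lmod2* had a log2 fold change of 0.35 (adjusted p = 0.392, range over the alternatives 0.0396 to 0.908) and *Lmod3* 0.69 (adjusted p = 0.0890). DESeq2 called *Lmod3* higher (adjusted p = 0.0396, range 0.00263 to 0.292).

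All 6 troponin genes rose, where 14.0% of all tested genes did, with a median log2 fold change of 1.26, the highest of the 6 role groups. Troponin C binds calcium, troponin I holds the filament off and troponin T ties the complex to tropomyosin, and each has a slow and a fast gene. The fast form of troponin C, *Tnnc2*, was at 1316, 569, 1039, 1200 and 980 CPM in WT and at 3161, 1842, 2172 and 3413 CPM in the libraries labelled FcgRIIB-/-. Each of the 4 exceeded every WT mouse, the fold change was 2.59 and the log2 value 1.37 (SE 0.25, adjusted p = 0.00290). Per kilobase of exon it ranked 2 of the 38 genes in WT, at 1276 CPM per kilobase, and 1 in the libraries labelled FcgRIIB-/-, at 3309, above *Tnnt3* (2676) and *Acta1* (2580). However, 74.0% of its exon bases overlap *Ube2c*, a cell cycle gene, and whether the counting used strand is not given in the sources used here.

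*Tnnc1*, the slow and cardiac form, was scarce. It had 25, 24, 23, 38 and 17 counts in WT and 110, 32, 57 and 94 counts in the other group, which is 0.66 to 1.39 CPM against 3.85, 1.48, 2.42 and 4.76 CPM. FcgRIIB-/- replicate 2 lay barely above the highest WT mouse and the other 3 well above it, for a 3.23-fold rise, the largest of the 38 in the main comparison (log2 1.69, SE 0.34, adjusted p = 0.00433). The promoters of this slow and fast pair are printed as above, at chr14:31208062-31208311 on the plus strand for *Tnnc1* and chr2:164779735-164779984 on the minus strand for *Tnnc2*, because both genes rose strongly from very different levels.
Tnnc1: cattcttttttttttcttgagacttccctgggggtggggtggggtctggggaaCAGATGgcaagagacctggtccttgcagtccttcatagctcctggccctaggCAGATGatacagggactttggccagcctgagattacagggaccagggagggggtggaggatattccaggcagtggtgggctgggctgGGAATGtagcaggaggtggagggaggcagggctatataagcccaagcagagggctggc
Tnnc2: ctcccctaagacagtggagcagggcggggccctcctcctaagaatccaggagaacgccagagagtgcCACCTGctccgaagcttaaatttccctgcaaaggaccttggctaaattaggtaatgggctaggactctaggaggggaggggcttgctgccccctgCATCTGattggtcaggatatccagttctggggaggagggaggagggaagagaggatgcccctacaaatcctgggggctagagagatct
*Tnnc1* holds E-boxes at -197 to -192 and -145 to -140 and an MCAT match, on the opposite strand, at -58 to -53. *Tnnc2* holds E-boxes at -183 to -178 and -88 to -83 and no MCAT or CArG match in this window.

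The troponin I and T genes behaved alike in direction. Fast *Tnni2* was at 568 to 1290 CPM in WT and at 3187, 1805, 2159 and 3138 CPM in the other group, a 2.59-fold rise without overlap (log2 1.37, SE 0.24, adjusted p = 0.00239). Fast *Tnnt3* was at 1089 to 2437 CPM in WT and at 5059, 3148, 3241 and 5495 CPM, a 2.21-fold rise, also without overlap (1.14, SE 0.25, adjusted p = 0.00633). The slow genes were far scarcer: per kilobase of exon the WT mean was 0.577 CPM for *Tnni1* against 664 for *Tnni2*, and 3.25 for *Tnnt1* against 1210 for *Tnnt3*. *Tnni1* was at 1.96, 1.04, 3.12, 2.39 and 1.87 CPM in WT and at 4.13, 3.19, 4.75 and 3.60 CPM (0.91, SE 0.27, adjusted p = 0.0253), and *Tnnt1* at 3.91, 5.10, 6.01, 10.9 and 9.84 CPM in WT and at 13.7, 16.1, 8.60 and 13.6 CPM (0.86, SE 0.30, adjusted p = 0.0457). The groups did not overlap for *Tnni1* and overlapped through FcgRIIB-/- replicate 3 for *Tnnt1*.

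Both slow genes lost their call when single mice were left out. For *Tnni1* the adjusted p was 0.0590 without FcgRIIB-/- replicate 1 and 0.0702 without replicate 3, the top of its range, which began at 0.00461. For *Tnnt1* it was 0.0749, 0.0807 and 0.0846 without WT replicates 1, 2 and 3, and 0.0918, 0.116 and 0.0903 without FcgRIIB-/- replicates 1, 2 and 4, over a range of 0.0132 to 0.116.

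In the thick filament and M band 2 of 6 genes rose, against 14.0% of all tested genes, with a median log2 fold change of 0.67. *Mylpf*, the fast regulatory light chain that sits on the neck of myosin, was at 958, 426, 669, 880 and 730 CPM in WT and at 2042, 1164, 1310 and 1776 CPM in the libraries labelled FcgRIIB-/-. The 4 lay above all WT mice and the gene rose 2.15-fold (log2 1.10, SE 0.23, adjusted p = 0.00581). *Ttn*, titin, is the spring that joins the Z disc to the M band and has the most annotated exon bases of the 38, at 116825. It was at 579 to 1339 CPM in WT and at 2162, 1394, 1403 and 1801 CPM in the other group. The lowest of these 4 was just above WT replicate 1, and the 1.61-fold rise (0.69, SE 0.23, adjusted p = 0.0396) was lost without WT replicate 3 (adjusted p = 0.0744), WT replicate 4 (0.0559), FcgRIIB-/- replicate 1 (0.113) or FcgRIIB-/- replicate 4 (0.0853), over a range of 0.00620 to 0.113.

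The myosin binding proteins and myomesins were not called by edgeR. Fast myosin binding protein C, *Mybpc2*, had a log2 fold change of 0.71 (SE 0.26, adjusted p = 0.0563) and passed by DESeq2 (adjusted p = 0.0137) and without WT replicate 1 (adjusted p = 0.0433, range 0.00347 to 0.149). Its slow counterpart *Mybpc1* was at 204 to 517 CPM in WT and at 628, 372, 413 and 392 CPM in the other group, where only FcgRIIB-/- replicate 1 lay above the WT range, and had a log2 fold change of 0.23 (adjusted p = 0.498). Myomesin, the protein that cross-links thick filaments at the M band, gave 0.34 (adjusted p = 0.220) for *Myom1* and 0.65 (adjusted p = 0.0888) for *Myom2*, which passed without FcgRIIB-/- replicate 4 (adjusted p = 0.0311, range 0.0311 to 0.203). That mouse had the lowest *Myom2* of its group, at 82.0 CPM against 147 to 178 in the other 3.

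At the Z disc and in the cytoskeleton 6 of 9 genes rose, against 14.0% of all tested genes, with a median of 0.74. *Tcap*, telethonin, the cap that ties the ends of titin together, was at 410, 157, 314, 358 and 349 CPM in WT and at 1033, 491, 563 and 1244 CPM in the libraries labelled FcgRIIB-/-. FcgRIIB-/- replicates 1 and 4 were far above the rest, all 4 exceeded the WT range, and the gene rose 2.62-fold (log2 1.39, SE 0.32, adjusted p = 0.00801). *Myoz1*, a calcineurin-binding Z disc protein of fast fibres, was at 162 to 360 CPM in WT and at 650, 413, 395 and 588 CPM and rose 1.84-fold without overlap (0.88, SE 0.23, adjusted p = 0.0161).

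The remaining Z disc genes that rose were closer to the threshold. *Actn2* and *Actn3*, the alpha-actinins that cross-link actin, had log2 fold changes of 0.68 (SE 0.23, adjusted p = 0.0403) and 0.88 (SE 0.29, adjusted p = 0.0403), *Ldb3*, a PDZ and LIM protein bound to alpha-actinin, 0.74 (SE 0.21, adjusted p = 0.0226), and *Smpx*, a small muscle protein encoded on the X chromosome, 0.59 (SE 0.19, adjusted p = 0.0376). The groups did not overlap for *Actn2* and *Ldb3*. All 4 calls were lost without FcgRIIB-/- replicate 1, where the adjusted p was 0.124 for *Actn2*, 0.116 for *Actn3*, 0.0666 for *Ldb3* and 0.116 for *Smpx*. *Actn2* was also lost without WT replicates 3 (0.0643) and 4 (0.0665) and FcgRIIB-/- replicates 3 (0.0539) and 4 (0.0634), *Actn3* without WT replicates 3 (0.0766) and 5 (0.0533) and FcgRIIB-/- replicate 4 (0.0971), and *Smpx* without WT replicates 3 (0.0644) and 4 (0.0582) and FcgRIIB-/- replicate 3 (0.0691). The lowest adjusted p over the alternatives was 0.00742, 0.00263, 0.00213 and 0.00986 for the 4 genes in that order.

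*Myoz2*, *Myot* and *Des* were not called by edgeR. The slow-fibre calsarcin *Myoz2* was at 24.1, 7.83, 16.8, 18.4 and 27.8 CPM in WT and at 45.6, 33.9, 46.6 and 13.5 CPM in the other group. FcgRIIB-/- replicate 4 thus lay among the lowest WT mice while the other 3 exceeded all of them, and the gene passed only without that mouse (adjusted p 0.0979 with it and 0.0253 without, range 0.0253 to 0.226). Myotilin, *Myot*, an actin-bundling Z disc protein, had a log2 fold change of 0.63 (adjusted p = 0.0641) and passed by DESeq2 (0.0203) and without FcgRIIB-/- replicate 4 (0.0484, range 0.0203 to 0.172). Desmin, *Des*, the intermediate filament that links neighbouring Z discs, had 0.60 (adjusted p = 0.0843) and passed by DESeq2 (0.0304, range 0.00922 to 0.262).

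The calcium handling genes gave the lowest median of the role groups, 0.42, and 2 of 7 rose, against 14.0% of all tested genes. *Pvalb*, parvalbumin, the soluble calcium buffer of fast fibres, was at 971, 356, 631, 842 and 697 CPM in WT and at 1823, 987, 1253 and 1602 CPM in the libraries labelled FcgRIIB-/-. FcgRIIB-/- replicate 2 was just above WT replicate 1, and the gene rose 2.02-fold (log2 1.02, SE 0.26, adjusted p = 0.0147). *Sln*, sarcolipin, a small peptide that restrains the calcium pump, was at 1.70, 2.13, 3.01, 3.27 and 1.72 CPM in WT and at 3.19, 6.93, 3.13 and 3.75 CPM in the other group. Its groups overlapped, FcgRIIB-/- replicate 2 was high, and its log2 fold change of 0.84 (SE 0.30) sat at the threshold with an adjusted p of 0.0497.

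That call on *Sln* was lost under 11 of 18 alternatives. The adjusted p was 0.0933, 0.0775 and 0.0851 without WT replicates 1, 2 and 5, and 0.0508, 0.170 and 0.0709 without FcgRIIB-/- replicates 1, 2 and 4, with a range of 0.0195 to 0.170.

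The release and uptake machinery itself was not called by edgeR. *Atp2a1*, the fast calcium pump SERCA1, was at 2765, 1145, 1842, 2290 and 2516 CPM in WT and at 3975, 2307, 1970 and 3070 CPM in the libraries labelled FcgRIIB-/-. Only FcgRIIB-/- replicates 1 and 4 exceeded the WT range, and the log2 fold change was 0.42 (SE 0.27, adjusted p = 0.242, range over the alternatives 0.0402 to 0.572). The ryanodine receptor *Ryr1* gave 0.34 (SE 0.27, adjusted p = 0.362), the voltage sensor *Cacna1s* 0.39 (SE 0.25, adjusted p = 0.262, range 0.0203 to 0.656) and junctophilin *Jph1*, which holds the surface membrane and the calcium store together, 0.39 (SE 0.24, adjusted p = 0.240). *Casq1*, calsequestrin, the calcium-binding protein inside the store, had 0.72 (SE 0.26, adjusted p = 0.0532) and passed by DESeq2 (0.0127) and without WT replicate 1 (0.0369, range 0.00639 to 0.167). All of these differences were positive, and a p that misses the threshold does not show that the groups were alike.

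Of the 3 genes for energy, oxygen and protein turnover, 2 rose, against 14.0% of all tested genes. *Ckm*, muscle creatine kinase, which rebuilds ATP from phosphocreatine, was at 867 to 2033 CPM in WT and at 3850, 2247, 2140 and 4294 CPM in the libraries labelled FcgRIIB-/-, without overlap (log2 0.98, SE 0.28, adjusted p = 0.0214). The call was lost without FcgRIIB-/- replicate 1 (0.0594) or replicate 4 (0.0663), over a range of 0.000825 to 0.0663. Myoglobin, *Mb*, the oxygen store of the fibre, was at 719 to 1631 CPM and at 2970, 1511, 1660 and 2580 CPM (0.78, SE 0.26, adjusted p = 0.0393), and lost its call without WT replicates 3 (0.0720) or 5 (0.0530) and without FcgRIIB-/- replicates 1 (0.117) or 4 (0.0989), over a range of 0.00415 to 0.117.

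*Trim63*, which encodes MuRF1, a ubiquitin ligase that rises in muscle wasting, was the 1 gene of the 38 with a negative value. It was at 28.2, 11.1, 21.2, 25.6 and 20.5 CPM in WT and at 32.5, 14.4, 14.9 and 21.6 CPM in the libraries labelled FcgRIIB-/-. The groups overlapped throughout, and the log2 fold change of -0.03 (SE 0.29, adjusted p = 0.948) became positive without WT replicate 1 (0.11), WT replicate 4 (0.06), FcgRIIB-/- replicate 2 (0.11) or FcgRIIB-/- replicate 3 (0.10). A pair of its functional neighbours stood at the low end of the other muscle genes: *Trim55*, which encodes MuRF2, had -0.51 (SE 0.33, adjusted p = 0.255) and *Fbxo32*, the ligase atrogin-1, -0.33 (SE 0.17, adjusted p = 0.150). Neither was called on TMM-scaled libraries, and another MuRF gene of the same list, *Trim54*, rose (1.13, SE 0.26, adjusted p = 0.00792).

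The other genes of the muscle programme were a list of 60 that shares none of the 38. Of these 29 rose and none fell by edgeR, none had an unadjusted p under 0.05 in the downward direction, and DESeq2 and limma-voom called 34 and 26 higher and none lower. Over all tested genes the share called higher was 14.0% by edgeR, 17.3% by DESeq2 and 13.6% by limma-voom. The median log2 fold change was 0.65, close to the 0.73 of the sarcomere and calcium genes. Their summed CPM was 6685 to 13862 in WT and 13314 to 21695 in the other group, so the lowest library labelled FcgRIIB-/- lay below the highest WT library. The highest values of the list were those of *Ankrd2*, a stretch-responsive ankyrin repeat protein (1.51, SE 0.44, adjusted p = 0.0241), *Jsrp1*, a protein of the triad membrane (1.29, SE 0.25, adjusted p = 0.00371), and triadin, *Trdn*, which ties calsequestrin to the ryanodine receptor (1.24, SE 0.24, adjusted p = 0.00377).

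A second fit asked which of the 38 genes differed by more or less than the rest of the muscle programme. Each library was scaled by its median ratio over those 60 genes, which moved the median of all tested genes to -0.63 on the log2 scale. Relative to this base 5 of the 38 rose, *Tnnc1* (log2 1.04, SE 0.41, adjusted p = 0.0326), *Actc1* (0.97, SE 0.33, adjusted p = 0.0142), *Tcap* (0.83, SE 0.29, adjusted p = 0.0158), *Tnnc2* (0.81, SE 0.28, adjusted p = 0.0155) and *Tnni2* (0.79, SE 0.28, adjusted p = 0.0173), where 0.300% of all tested genes rose. None of the 38 fell at the threshold by edgeR or by limma-voom, 1 had an unadjusted p under 0.05 in the downward direction by edgeR and 2 by limma-voom, and 40.5% of all genes fell. Of the 60 genes that set the base, 3 rose and 7 fell in this fit. Among those that fell were *Trim55* (log2 -1.11, SE 0.37, adjusted p = 0.0119) and *Fbxo32* (-0.97, SE 0.29, adjusted p = 0.00545), while *Trim54* was not called (0.55, SE 0.28, adjusted p = 0.0945). The shift of the all-gene median lowers the share that rises and raises the share that falls, so these shares are no like base for muscle genes.

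The muscle-scaled values separated the groups for 9 genes. *Tnnt3*, *Tnni2*, *Tnnc2*, *Mylpf* and *Tcap* were higher in every library labelled FcgRIIB-/- than in any WT library, as were 0.288% of all genes, and *Neb*, *Mybpc1*, *Myom1* and *Trim63* were lower in every one, as were 38.7% of all genes. Both shares carry the same shift of the all-gene median. *Neb* had muscle-scaled counts of 20440, 20220, 19790, 21620 and 22700 in WT and of 15170, 14470, 13370 and 13850 in the other group. The WT mice thus lay within a narrow band once scaled to muscle, WT replicate 2 included, and the relative log2 fold change of *Neb* was -0.56 (SE 0.29, adjusted p = 0.0968). For *Trim63* it was -0.63 (SE 0.30, adjusted p = 0.0714). *Neb* and *Trim63* passed without WT replicate 2, at adjusted p values of 0.0229 and 0.00721, over ranges of 0.0229 to 0.182 and 0.00714 to 0.186. Without that mouse 2 of the 38 genes were called lower in this fit, and so were 6001 of all 16222 genes tested.

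The relative calls also rested on single mice. Without FcgRIIB-/- replicate 4, the adjusted p became 0.195 for *Tcap*, 0.190 for *Tnnc1*, 0.101 for *Tnnc2* and 0.0894 for *Tnni2*, and *Actc1* alone was called. *Actc1* was lost without WT replicate 3 (0.0675), FcgRIIB-/- replicate 1 (0.0544) or FcgRIIB-/- replicate 3 (0.0861). *Tnnc1* was lost, in addition, without WT replicates 1 (0.0604), 3 (0.0696) or 5 (0.0762) and without FcgRIIB-/- replicates 1 (0.0692) or 3 (0.0563). The adjusted p ranged from 0.00244 to 0.195 for *Tcap*, 0.00247 to 0.190 for *Tnnc1*, 0.00246 to 0.101 for *Tnnc2*, 0.00266 to 0.0894 for *Tnni2* and 0.000101 to 0.0861 for *Actc1*. *Tnnt3* was gained without WT replicate 2 (0.0348, range 0.0267 to 0.269).

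**Figure D3:**
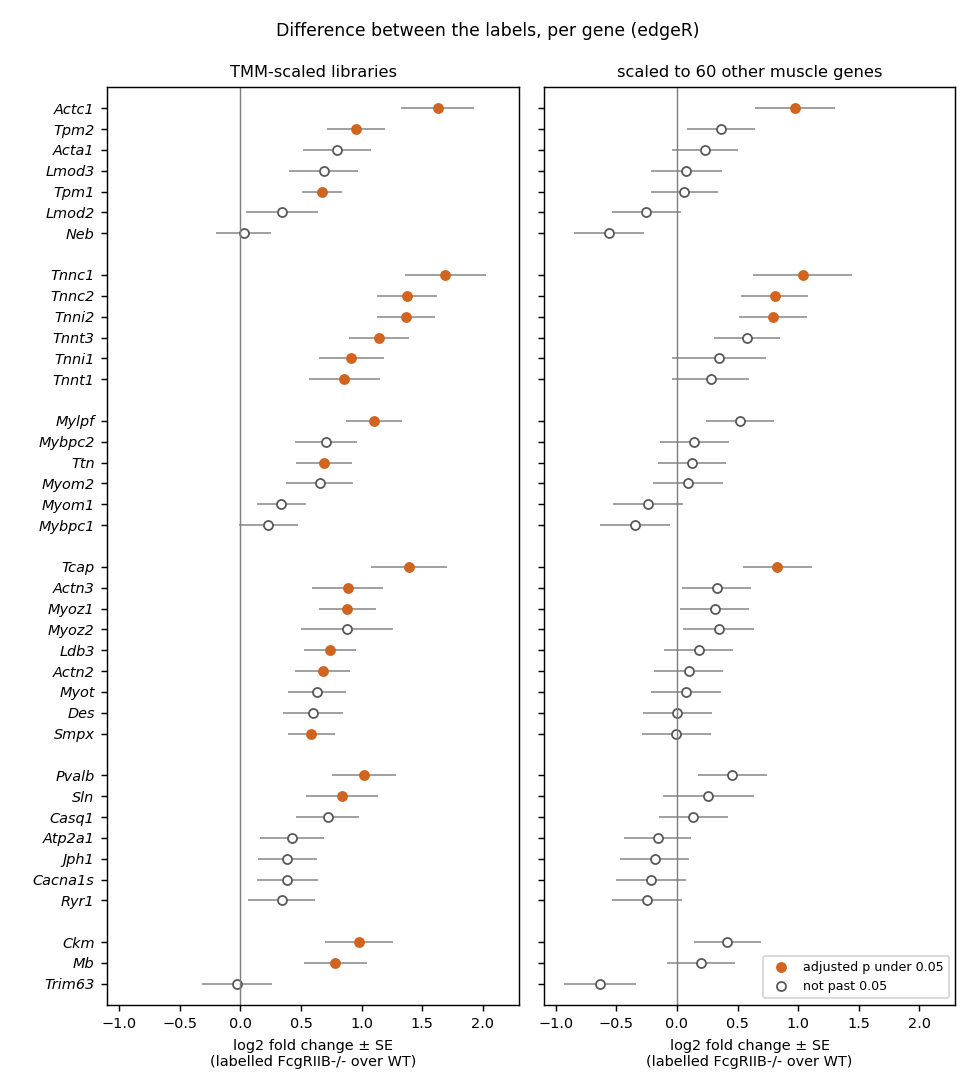
Log2 fold change of each of the 38 genes, libraries labelled FcgRIIB-/- over WT, with its SE as a bar, from the fit on TMM-scaled libraries (left) and from the fit on libraries scaled to 60 other muscle genes (right). Filled points have an adjusted p under 0.05; 21 are filled on the left and 5 on the right, and *Neb* and *Trim63* sit lowest in both.

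Fast and slow forms rose side by side. Among the 10 genes typical of fast fibres 7 rose, with a median log2 fold change of 0.95, and among the 8 slow or cardiac ones 6 rose, with a median of 0.87, while 8 of the 20 genes shared by all fibres rose, with a median of 0.66. Over all tested genes 14.0% rose. The slow or cardiac form in each of 6 pairs of related genes was also expressed as a percentage of the pair, from CPM per kilobase of exon. These pairs were chosen after their values were seen, so no test is given.

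The slow troponins remained trace components. *Tnnc1* made up 0.0520% to 0.130% of troponin C in WT and 0.0617% to 0.107% in the libraries labelled FcgRIIB-/-, *Tnni1* 0.0630% to 0.127% and 0.0477% to 0.0913% of troponin I, and *Tnnt1* 0.115% to 0.349% and 0.177% to 0.366% of troponin T. All these ranges overlapped. *Actc1* was 0.126% to 0.292% of its sum with *Acta1* in WT and 0.190% to 0.569% in the other group, and *Myoz2* was 2.60% to 4.83% and 1.25% to 6.13% of its sum with *Myoz1*. *Mybpc1*, by contrast, was 43.4% to 51.0% of its sum with *Mybpc2* in WT and 31.5% to 42.5% in the libraries labelled FcgRIIB-/-, with no overlap.

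**Figure D4:**
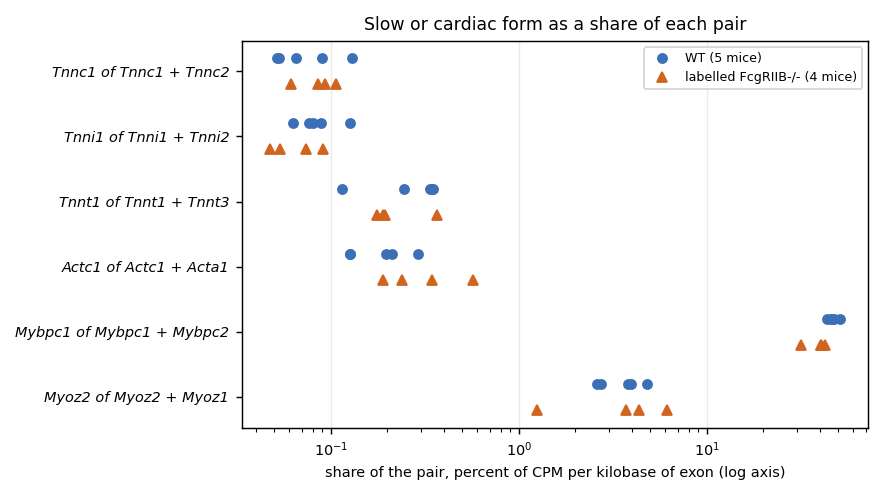
Slow or cardiac form as a percentage of the CPM per kilobase of its pair in each library, on a log axis, with circles for 5 WT mice and triangles for 4 mice labelled FcgRIIB-/-. The groups are apart for *Mybpc1*, with 43.4% as the lowest WT value and 42.5% as the highest of the others, and overlap in the remaining pairs.

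Among the 38, short genes gave larger differences than long ones. Over the 38 genes, Spearman's rho between the log2 fold change and the length of the annotated exons was -0.698, and it was -0.482 over the 60 other muscle genes and -0.225 over the 15994 tested genes with a length. Pearson's r with log2 length was -0.576, -0.442 and 0.0259 for the same sets, so over all genes the rank and the linear measure differed in sign. The genes of a set share the same 9 libraries, so these are descriptions. The 13 shortest of the 38 (800 to 1951 bases, among them *Tnnc2*, *Tcap*, *Pvalb* and *Mylpf*) included 11 that rose and had a median of 1.10. The 12 of middle length (1976 to 3600 bases) included 6 that rose, with a median of 0.77, and the 13 longest (3611 to 116825 bases, among them *Neb*, *Ryr1* and *Myom1*) included 4, with a median of 0.60. Of all tested genes, whatever their length, 14.0% rose.

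The relation with length was present in each library labelled FcgRIIB-/-. Against the WT mean, rho over the 38 genes was -0.654, -0.514, -0.410 and -0.666 in FcgRIIB-/- replicates 1 to 4, and 0.0353, -0.137, 0.0370, -0.500 and 0.403 in WT replicates 1 to 5, so WT replicate 4 leaned the same way. Over 15820 tested genes in none of the lists it was -0.202, -0.139, -0.203 and -0.231 in the former and between -0.128 and 0.114 in WT. In an added fit, each library's trend with exon length over tested genes in none of the lists was taken out before the test. There 16 of the 38 genes were called higher, all of them among the 21, against 13% of all genes, and the median was 0.72. *Tnnt1*, *Actn3*, *Smpx*, *Sln* and *Mb* were no longer called, at adjusted p values of 0.0792, 0.0548, 0.0744, 0.117 and 0.0849, and *Neb* had a log2 fold change of 0.26 (adjusted p = 0.438). The part of exon length, of coverage along transcripts and of RNA quality in the differences between genes was not tested.

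**Figure D5:**
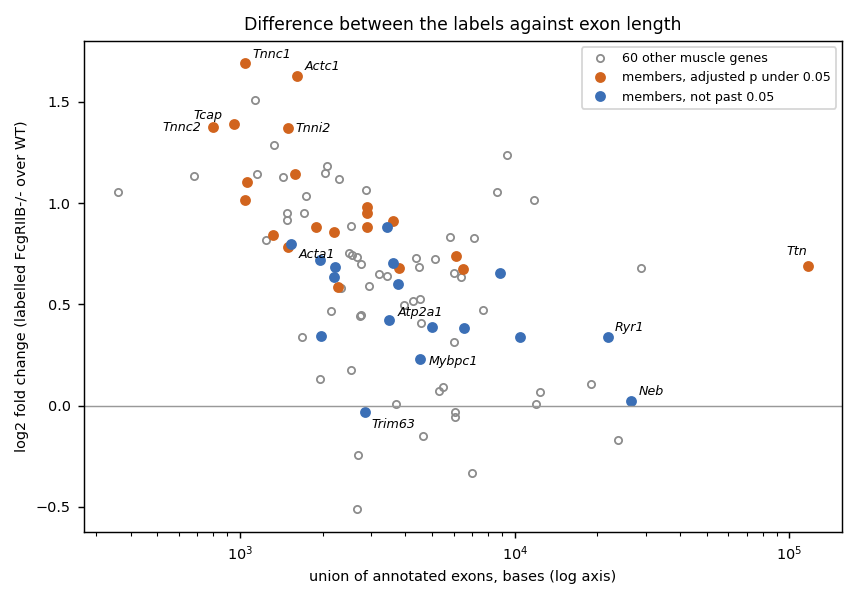
Log2 fold change of each gene, libraries labelled FcgRIIB-/- over WT, against the length of its annotated exons in bases on a log axis, for the 38 genes (filled; orange with an adjusted p under 0.05, blue without) and 60 other muscle genes (open). Values above 1.10 among the 38 belong to genes of at most 1618 bases, and *Ttn*, at 116825 bases, lies at 0.69.

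Few of the 38 genes share exon bases with a neighbour. Apart from *Tnnc2*, the overlaps were 21.9% of *Atp2a1* with *Rabep2*, 15.5% of *Ckm* with a long noncoding gene (*A930016O22Rik*), 5.86% of *Des*, 4.29% of *Mb* and 1.98% of *Myom1*. Stretches of 75 bases, the read length, that also occur in another gene's transcripts were found in *Acta1* only, at 0.44% of its positions.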

How the data were processed

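Whole mandibles with teeth were pulverized and poly(A) RNA was sequenced from a stranded kit as 75-base single-end reads. The authors used Trim Galore for adaptor and quality trimming, HISAT 02.1.0 for alignment to mm10 and featureCounts for counting, and the deposited values are raw counts per gene; the annotation, strand setting and handling of reads matching several genes are not given in the sources used here. Samples were grouped by genotype label, and 1 column of per-sample values that matched none of the samples was not used. The labels tie no sequenced mouse to a litter or extraction batch, so p-values measure the spread between these mice.

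The fit used edgeR 4.0.16 in R 4.3.3: filterByExpr (minimum count 10), TMM scaling, a quasi-likelihood test of genotype over all 9 mice, and Benjamini-Hochberg adjustment over all 16329 tested genes. Adjusted p-values are from this fit unless another tool is named, and genes "rose" or "fell" at an adjusted p under 0.05. The SE of a log2 fold change is its absolute value divided by the root of the F statistic. CPM were scaled by TMM. The second fit replaced TMM by the median ratio over 60 other muscle genes. Scripts were checked on simulated counts. No pair of libraries with the same label agreed within sampling noise, and pairs across the labels were not compared.

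The 38 genes, the lists and the tests were chosen with earlier results of these data known. All 38 genes could be named, with the 3 highest and 3 lowest of the other muscle genes, the 2 most abundant of each marker list and any marker at 0 throughout. *Myh8* and *Ncam1* are also the 2 most abundant of their list. *Trim54* was named in addition, beside its relatives *Trim63* and *Trim55*, and so was *Adipoq*, as the adipocyte marker that fell. Exon lengths are from GENCODE models of GRCm38, matched for 97.95% of tested genes. Gene positions are from RefSeq, as are the promoters, on GRCm38.p6.

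Alternatives were RLE scaling (DESeq2's size factors), library totals, TMM without muscle and marrow genes, no low-count filter, at least 10 counts in every library, DESeq2 1.42.0, limma-voom (limma 3.58.1), the replicate number as a block and each mouse left out, and, for the second fit, scaling by the summed muscle genes. A correction for exon length was added after seeing the data.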

Additional observations from a re-analysis of the deposited data

Results flagged for a closer look

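Within each group of 4 or 5 mice, the highest or lowest library was set against the range of its group by Dixon's rule for 112 groups of values, and 7 stood apart. Chance alone marks about 1 in 20 groups. FcgRIIB-/- replicate 1 was far above the other 3 libraries of its label for *Neb* (1011 CPM against 615 to 647), *Mybpc1* (628 CPM against 372 to 413) and *Actn2* (335 CPM against 205 to 225). FcgRIIB-/- replicate 2 stood apart for *Sln* (6.93 CPM against 3.13 to 3.75) and for the share of *Tnnt1* in its sum with *Tnnt3* (0.366% against 0.177% to 0.194%). In WT replicate 5 the smooth muscle markers summed to 599.9 CPM (against 475 to 511 in the other WT libraries) and the marrow myeloid markers to 3603 CPM (against 1192 to 1862).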

How the results depend on the processing

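Among the log2 fold changes of the 38 genes, 18 alternatives gave 684 values: 599 kept direction and side of the threshold, 53 kept the direction and lost the call, 24 kept it and gained one, and 8 changed sign. For the fit relative to the other muscle genes the 532 values split into 494, 12, 6 and 20. Leaving out 1 mouse at a time gave 11 to 22 of the 38 genes higher and 0 lower, 18 to 30 other muscle genes higher and 0 to 1 lower, and, relative to the other muscle genes, 1 to 6 higher and 0 to 2 lower. Over all genes, 10.8% to 14.1% were higher in the TMM-scaled fits with 1 mouse left out. In the relative ones 0.139% to 0.783% of all genes were higher and 3457 to 8098 genes were lower.

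No gene that changed sign was called in either direction where it did. *Neb* was -0.0466 with library totals and -0.18 to 0.12 with 1 mouse left out, and *Trim63* was -0.33 to 0.11 with 1 mouse left out. Relative to the other muscle genes, *Des* was -0.011 with summed muscle scaling, -0.0028 with limma-voom and -0.0086 with the replicate block. With 1 mouse left out, relative values ran from -0.0726 to 0.0517 for *Des*, -0.0467 to 0.0351 for *Smpx*, -0.0539 to 0.26 for *Myom2*, -0.0374 to 0.18 for *Lmod3*, -0.19 to 0.46 for *Sln*, -0.0273 to 0.16 for *Myot*, -0.0243 to 0.13 for *Tpm1* and -0.0059 to 0.21 for *Mybpc2*. The cause was not tested.

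The deviations of same-numbered mice correlated at r of 0.0969, 0.0276, -0.114 and -0.0739 over all genes and at 0.614, -0.0111, 0.16 and 0.431 over the 38, not every mouse correlated best with its own number, and the labels name no shared litter or day, so pairing was not used in the reported fit. With the replicate block, over replicates 1 to 4, 30 of the 38 genes were higher, against 11.4% of all genes. Of the 30, 20 were among the 21 and the others were *Acta1*, *Lmod2*, *Lmod3*, *Mybpc2*, *Myom2*, *Myot*, *Des*, *Casq1*, *Atp2a1* and *Cacna1s*. In the relative fit with this block 6 of the 38 were higher and 2 lower, while 0.382% of all genes were higher and 10726 of all 16214 genes tested were lower. Genes below 1 CPM in WT, such as *Tnnc1* with 17 to 38 counts, are limited by depth.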
